A study of Mus musculus with 14 samples.

Results

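The 10 genes described here, Pecam1, Cdh5, Kdr, Tek, Tie1, Cldn5, Emcn, Egfl7, Esam and Ramp2, are genes of the blood vessel endothelium, the cell layer that lines vessels. They were chosen by name, as the rows of the gene count table whose Ensembl identifiers carry these symbols in the GRCm38 annotation, and they are 10 of the 52550 genes in the table. RNA sequencing was done on 6 KPY-Ctrl and 8 KPY-Setd2KO mouse lung adenocarcinomas. All mice were flox/flox at Trp53 and held LSL-YFP on both copies of Rosa26, on a mixed background of B6J and 129S4vJae, so that Cre recombinase switched on yellow fluorescent protein (YFP) and removed p53 in the cells it reached. Cre came from a lentiviral CRISPR vector given into the airways, with an sgRNA against β-galactosidase in KPY-Ctrl and against Setd2, the gene of a histone H3 lysine methyltransferase, in KPY-Setd2KO mice. The lentivirus carries no cell type restriction that the methods name, the knockout arises by editing in each tumor, and the age of the mice at collection is not given in the sources used here. Tumors were dissected, dissociated and, for this experiment, sorted for live YFP-positive cells, so RNA of endothelial cells, which are not the intended target of the sort, would come from whatever the sort let through. An antibody gate against CD31, the protein of Pecam1, is described in the methods for flow cytometry but not for the RNA samples. The labels name RNA from cell lines instead, a conflict that was not resolved. Some tumors shared a mouse, the mouse of each tumor is not given, and all tests treated tumors as independent.

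Endothelial cells form the inner wall of every vessel, and in the lung the capillaries that wrap the alveoli make them one of the most frequent cell types of normal tissue. VEGF signals through Kdr, the main VEGF receptor of these cells, and angiopoietins signal through Tek (Tie2) with Tie1 as its partner receptor. Cdh5 (VE-cadherin), Cldn5, Esam and Pecam1 hold neighbouring cells together, Emcn is a sialomucin of capillaries and veins, Ramp2 is the partner of the adrenomedullin receptor, and Egfl7 is a secreted matrix protein whose intron holds the miRNA miR-126. Many endothelial genes are controlled by factors of the ETS family, such as Erg and Fli1, that bind a GGAA core.

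Promoter sequences are shown for a set of members that shared their highest tumors. These are the 250 bases before the RefSeq start (build GRCm38.p6) of the 4 members that had their highest levels in the same 3 tumors. Capitals mark GGAAG or CTTCC, the GGAA core with 1 more base read on both strands. GGAA cores followed by another base were neither marked nor counted, and the windows hold some of these in small letters. All run 5′ to 3′ on the strand of the gene.
Kdr, chr5:75978456-75978705, minus strand: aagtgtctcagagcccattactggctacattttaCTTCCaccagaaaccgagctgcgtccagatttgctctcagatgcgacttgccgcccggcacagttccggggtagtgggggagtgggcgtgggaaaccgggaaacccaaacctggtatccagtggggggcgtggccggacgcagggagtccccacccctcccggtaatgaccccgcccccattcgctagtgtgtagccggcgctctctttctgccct
Tek, chr4:94739039-94739288, plus strand: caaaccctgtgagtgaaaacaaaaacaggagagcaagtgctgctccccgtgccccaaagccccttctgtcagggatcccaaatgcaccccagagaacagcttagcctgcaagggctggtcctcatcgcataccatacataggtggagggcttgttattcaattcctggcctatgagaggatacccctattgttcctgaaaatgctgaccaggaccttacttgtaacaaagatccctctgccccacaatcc
Tie1, chr4:118489850-118490099, minus strand: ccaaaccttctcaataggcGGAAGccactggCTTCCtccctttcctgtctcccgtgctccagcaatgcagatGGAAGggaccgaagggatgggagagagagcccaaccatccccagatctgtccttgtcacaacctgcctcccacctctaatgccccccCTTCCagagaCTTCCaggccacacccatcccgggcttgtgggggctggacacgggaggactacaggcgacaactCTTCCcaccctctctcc
Cldn5, chr16:18776597-18776846, plus strand: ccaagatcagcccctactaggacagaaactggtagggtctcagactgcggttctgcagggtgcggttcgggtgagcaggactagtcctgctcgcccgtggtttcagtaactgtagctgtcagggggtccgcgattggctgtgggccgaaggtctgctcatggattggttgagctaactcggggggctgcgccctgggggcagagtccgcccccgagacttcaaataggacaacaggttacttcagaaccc
The Tie1 window held 6 such matches, the Kdr window 1, and the Tek and Cldn5 windows 0. In the GENCODE annotation Tie1 begins further upstream, at 118490061, so most of its window lies inside the annotated gene. The windows of Kdr, Tek and Cldn5 lie before their GENCODE starts, but for a few bases of Kdr. Over 32536 mouse promoter windows of the same length, 64.1% held at least 1 match, 0.341% held 6 or more and 35.9% held 0. The table used matched 6 of the 10 members, of which Emcn had 2 matches and the 3 start sites of Egfl7 had 4, 2 and 0. A match is a run of letters and says nothing about binding.

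Gene positions below are those of the GRCm38 annotation (GENCODE). Total counts per KPY-Ctrl tumor lay between 27866266 and 51828846 with a median of 43550358, and those per KPY-Setd2KO tumor between 20072236 and 40604404 with a median of 33616025. Levels are given as CPM, the counts per 1000000 of the library total after TMM scaling, on which 1 count was worth 0.0156 to 0.0519 CPM, and log2 fold changes are KPY-Setd2KO against KPY-Ctrl. Setd2 itself ranged from 41.9 to 63.6 CPM in KPY-Ctrl and from 17.9 to 47.4 CPM in KPY-Setd2KO tumors, with overlap between the groups, and its log2 fold change of -0.74 (SE 0.22) was not called (edgeR's quasi-likelihood test, adjusted p = 0.175). Leukocyte RNA differed widely between tumors. The mean log2 CPM of 12 leukocyte genes, used below as the leukocyte score, lay between 8.29 and 9.04 in KPY-Ctrl replicates 1, 2 and 6 and KPY-Setd2KO replicates 1 to 4, and between 3.40 and 5.55 in the other 7 tumors. The leading epithelial gene, Sftpc (surfactant protein C), ranged from 3040 to 34500 CPM, and the leading leukocyte gene, Laptm5, from 29.2 to 3110 CPM.

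All 10 endothelial genes were detected and all passed the expression filter, which kept 16836 genes. Most were scarce. Esam (mean 18.8 CPM over the 14 tumors) and Pecam1 (15.3 CPM) lay near the middle of the genes tested, with 57.1% and 52.6% of genes below them. Egfl7 followed at 4.96 CPM and Cdh5 at 3.87 CPM, with 34.3% and 31.6% of genes below them. The other 6 had means from 0.445 CPM (Emcn) to 1.87 CPM (Cldn5), and 6.84% to 23.8% of genes tested lay below them. Per kilobase of merged exons, a scale on which genes can be set side by side, Esam was highest at 6.55 CPM per kb, followed by Pecam1 at 2.46, Egfl7 at 1.39, Cldn5 at 1.32 and Cdh5 at 0.920. Ramp2 (0.288), Tek (0.265), Tie1 (0.230), Kdr (0.126) and Emcn (0.0823 CPM per kb) formed the low end. In comparison, the VEGF receptor Flt1 stood at 7.98, the VEGF co-receptor Nrp1 at 6.34 and the lung capillary gene Car4 at 284 CPM per kb, so genes used as endothelial markers differed by orders of magnitude within the same tumors. Flt1, Nrp1 and Car4 are expressed by other cell types as well. In bulk RNA, fewer cells of a type and less RNA per cell cannot be told apart.

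**Figure D1:**
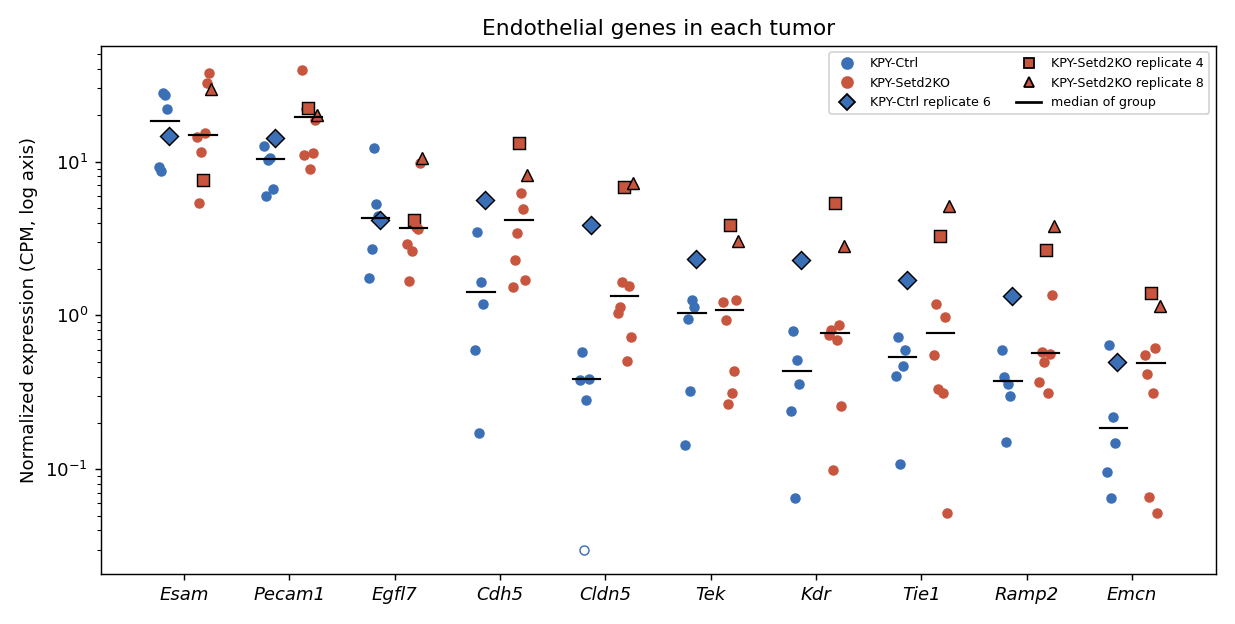
Normalized expression (CPM, log axis) of the 10 endothelial genes in each of the 6 KPY-Ctrl (blue) and 8 KPY-Setd2KO (red) tumors, with the median of each group as a bar. The marked symbols are KPY-Ctrl replicate 6 and KPY-Setd2KO replicates 4 and 8, which lie at the top for Kdr, Tek, Tie1 and Cldn5 but not for Esam, and the open circle is the tumor with 0 counts of Cldn5, drawn at the foot of the axis.

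The receptors Kdr, Tek and Tie1 were low in most tumors and highest in the same 3. Kdr, the VEGF receptor (ENSMUSG00000062960, chr5:75932827-75978458, minus strand), ranged from 0.0646 to 2.30 CPM in KPY-Ctrl (median 0.437) and from 0.0990 to 5.41 CPM in KPY-Setd2KO tumors (median 0.774). Its highest tumors were KPY-Setd2KO replicate 4 (5.41 CPM, 151 counts), KPY-Setd2KO replicate 8 (2.83 CPM, 74 counts) and KPY-Ctrl replicate 6 (2.30 CPM, 101 counts). The next tumor had 0.871 CPM, and the exact Poisson intervals at 95%, which cover counting error only, ran from 2.22 to 3.55 CPM in KPY-Setd2KO replicate 8 and from 1.87 to 2.79 CPM in KPY-Ctrl replicate 6. The groups overlapped, and the log2 fold change of 1.04 (SE 0.86) was not called (edgeR's quasi-likelihood test, adjusted p = 0.661).

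Tek, the angiopoietin receptor (ENSMUSG00000006386, chr4:94739289-94874976, plus strand), ranged from 0.143 to 2.32 CPM in KPY-Ctrl (median 1.04) and from 0.264 to 3.87 CPM in KPY-Setd2KO tumors (median 1.08). The same 3 tumors were highest, at 3.87, 3.06 and 2.32 CPM, ahead of 2 tumors at 1.25 CPM. The medians of the groups were nearly equal, and the log2 fold change of 0.47 (SE 0.70) had an adjusted p of 0.841 in edgeR's test. Tie1, the partner of Tek (ENSMUSG00000033191, chr4:118471191-118490061, minus strand), ranged from 0.108 to 1.70 CPM in KPY-Ctrl (median 0.532) and from 0.0519 to 5.12 CPM in KPY-Setd2KO tumors (median 0.765). Here KPY-Setd2KO replicate 8 was first (5.12 CPM), followed by KPY-Setd2KO replicate 4 (3.29 CPM) and KPY-Ctrl replicate 6 (1.70 CPM), with the next tumor at 1.19 CPM. KPY-Setd2KO replicate 7, the shallowest library, had 1 count of Tie1. The groups overlapped (log2 fold change 1.14, SE 0.83, adjusted p = 0.604 in edgeR's test).

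Of the junction genes, Cldn5, the tight junction protein claudin 5 (ENSMUSG00000041378, chr16:18776847-18778262, plus strand), had the largest fold change of the 10 and was also highest in the same 3 tumors. It was at 0 counts in KPY-Ctrl replicate 3, where the floor of 3 counts was worth 0.0646 CPM and the exact Poisson interval at 95% reached 0.0794 CPM. It ranged up to 3.89 CPM in KPY-Ctrl (median 0.385). In KPY-Setd2KO tumors it ranged from 0.503 to 7.23 CPM (median 1.35). The 3 highest values, 7.23 CPM in KPY-Setd2KO replicate 8, 6.80 CPM in KPY-Setd2KO replicate 4 and 3.89 CPM in KPY-Ctrl replicate 6, were followed by 1.65 CPM. All 8 KPY-Setd2KO tumors lay above the KPY-Ctrl median, and 2 lay above every KPY-Ctrl tumor. The log2 fold change was 1.48 (SE 0.98, adjusted p = 0.551 in edgeR's test), and without KPY-Ctrl replicate 6 it was 2.98, the largest move that leaving out a single tumor made for any of the 10 genes.

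Cdh5, the adherens junction cadherin of endothelium (ENSMUSG00000031871, chr8:104101625-104144511, plus strand), was the most abundant of the 7 genes that had a mean below 4 CPM. It ranged from 0.172 to 5.64 CPM in KPY-Ctrl (median 1.42) and from 1.52 to 13.1 CPM in KPY-Setd2KO tumors (median 4.17). The lowest tumor, KPY-Ctrl replicate 3, had 8 counts and the highest, KPY-Setd2KO replicate 4, had 365. KPY-Setd2KO replicate 8 was second at 8.22 CPM and KPY-Setd2KO replicate 5 came next at 6.28 CPM, above KPY-Ctrl replicate 6 at 5.64 CPM. All 8 KPY-Setd2KO tumors were above the KPY-Ctrl median, the groups overlapped, and the log2 fold change of 1.29 (SE 0.70) had an adjusted p of 0.448 in edgeR's test.

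Pecam1, or CD31 (ENSMUSG00000020717, chr11:106654217-106750628, minus strand), was the only one of the 10 with an unadjusted p under 0.05. It ranged from 5.98 to 14.3 CPM in KPY-Ctrl (median 10.4) and from 8.96 to 39.4 CPM in KPY-Setd2KO tumors (median 19.4), and 5 of the 8 KPY-Setd2KO tumors lay above every KPY-Ctrl tumor. Means were 10.1 ± 3.28 CPM (SD, n = 6) and 19.2 ± 9.72 CPM (SD, n = 8). The log2 fold change was 0.93 (SE 0.33). The unadjusted p of 0.0135 became 0.237 after adjustment over all genes in edgeR's quasi-likelihood test, and DESeq2 gave an adjusted p of 0.0993. Its highest tumor was KPY-Setd2KO replicate 1 at 39.4 CPM, not one of the 3 that led for the receptors, and KPY-Setd2KO replicates 4, 3 and 8 followed at 22.3, 21.9 and 20.1 CPM. Pecam1 is also expressed by leukocytes and platelets. Its log2 level rose by 0.13 (SE 0.07) for each unit of the leukocyte score, which did not pass the test (adjusted p = 0.0974 in edgeR), and with that score in the model the genotype difference was 0.83 (adjusted p = 0.0995).

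Esam, a junction protein shared by endothelium and platelets (ENSMUSG00000001946, chr9:37528078-37538319, plus strand), kept another order. It ranged from 8.72 to 27.8 CPM in KPY-Ctrl (median 18.3) and from 5.35 to 37.4 CPM in KPY-Setd2KO tumors (median 14.9). KPY-Setd2KO replicates 7 and 6 were highest at 37.4 and 32.5 CPM, while KPY-Setd2KO replicate 4, first or second for 8 of the other genes, was second from the bottom at 7.56 CPM. The means were 18.2 ± 8.59 CPM (SD, n = 6) and 19.2 ± 12.2 CPM (SD, n = 8), with a log2 fold change of 0.07 (SE 0.45, adjusted p = 0.968 in edgeR's test).

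Of the remaining genes, Ramp2 (ENSMUSG00000001240, chr11:101246028-101259546, plus strand) ranged from 0.151 to 1.34 CPM in KPY-Ctrl (median 0.377) and from 0.314 to 3.82 CPM in KPY-Setd2KO tumors (median 0.572). KPY-Setd2KO replicates 8 and 4 led at 3.82 and 2.65 CPM, with KPY-Setd2KO replicate 7 (1.35 CPM) and KPY-Ctrl replicate 6 (1.34 CPM) next, and the log2 fold change was 1.27 (SE 0.68, adjusted p = 0.444 in edgeR's test). Part of the Ramp2 locus overlaps Vps25 on the same strand, and Vps25 had 1121 to 2757 counts per tumor against 7 to 100 for Ramp2, so its estimate depends on how shared reads were split. Emcn (ENSMUSG00000054690, chr3:137341067-137432185, plus strand) was the scarcest, with 1 to 39 counts per tumor. It ranged from 0.0646 to 0.638 CPM in KPY-Ctrl (median 0.184) and from 0.0519 to 1.40 CPM in KPY-Setd2KO tumors (median 0.488), again led by KPY-Setd2KO replicates 4 (1.40 CPM) and 8 (1.15 CPM). Its log2 fold change was 1.04 (SE 0.72, adjusted p = 0.576 in edgeR's test).

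Egfl7 (ENSMUSG00000026921, chr2:26580014-26593120, plus strand) was the one gene of the 10 with a fold change below 0. It ranged from 1.74 to 12.2 CPM in KPY-Ctrl (median 4.27) and from 1.68 to 10.5 CPM in KPY-Setd2KO tumors (median 3.72), and the log2 fold change of -0.06 (SE 0.49) had an adjusted p of 0.976 in edgeR's test. KPY-Ctrl replicate 3, which was lowest for Kdr, Cldn5, Cdh5 and Ramp2, was highest for Egfl7 at 12.2 CPM. Without this tumor the log2 fold change was 0.41. The gene lies on chromosome 2 and its intron holds miR-126, a miRNA of endothelium, whose mature sequence is shown with the seed (bases 2 to 8) in capitals because it is the best known product of this locus.
mmu-miR-126a-3p, chr2:26591402-26591423, plus strand (RefSeq, GRCm38.p6): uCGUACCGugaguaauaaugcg
The rows of Mir126a and Mir126b were at 0 counts in all 14 tumors. These libraries were made to sequence mRNA, so this is no measure of the mature miRNA. Egfl7 also overlaps Gm20532 on the same strand (0 to 54 counts) and the end of Agpat2 on the other strand.

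**Figure D2:**
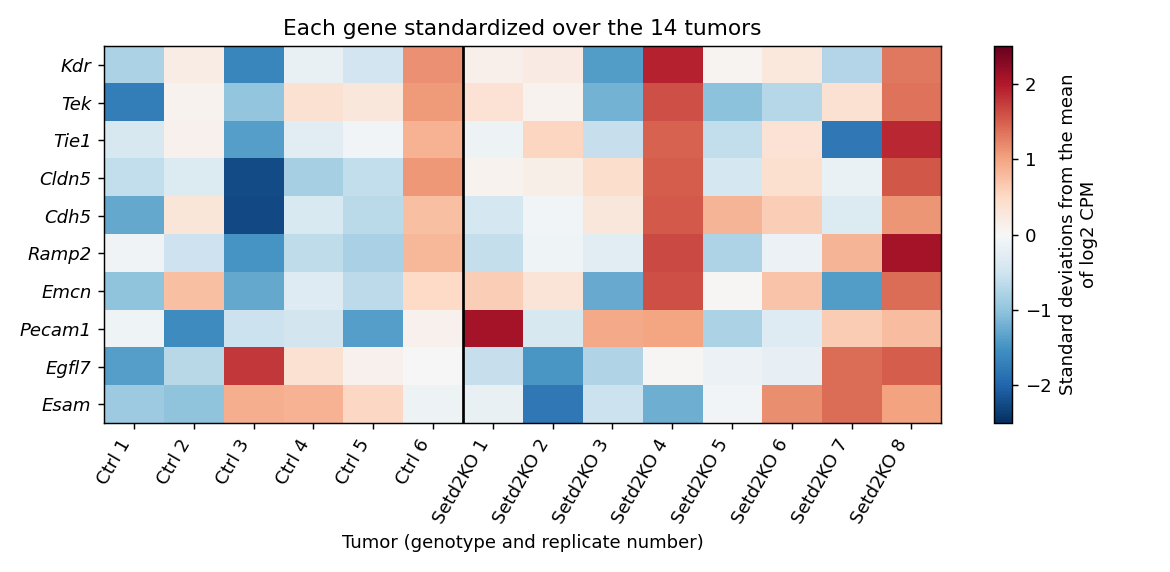
Log2 CPM of each endothelial gene (rows) in each tumor (columns), as standard deviations from that gene's mean over the 14 tumors, with red for higher and blue for lower and a vertical line between KPY-Ctrl and KPY-Setd2KO. KPY-Ctrl replicate 6 and KPY-Setd2KO replicates 4 and 8 are red over the upper 7 rows, where KPY-Ctrl replicate 3 is blue, and the rows of Pecam1, Egfl7 and Esam follow other orders.

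Taken by tumor, the 7 genes with a mean below 4 CPM (Kdr, Tek, Tie1, Cldn5, Cdh5, Ramp2 and Emcn, a group formed after their levels were seen, with Cdh5 at 3.87 CPM just inside and Egfl7 at 4.96 CPM just outside) summed to 2.46, 7.53, 0.883, 4.73, 4.11 and 17.7 CPM in KPY-Ctrl replicates 1 to 6. They summed to 6.01, 7.35, 6.33, 36.5, 8.73, 9.94, 5.40 and 31.4 CPM in KPY-Setd2KO replicates 1 to 8. So 2 KPY-Setd2KO tumors and 1 KPY-Ctrl tumor stood above the other 11, whose sums ran up to 9.94 CPM. KPY-Setd2KO replicate 8 was among the 3 highest tumors for 9 of the 10 genes, KPY-Setd2KO replicate 4 for 8 and KPY-Ctrl replicate 6 for 4. Kdr, Tek, Tie1 and Cldn5 had exactly these 3 tumors on top. The same held for 44 of the 16836 genes tested (0.261%), which include these 4. The 3 tumors were picked after the levels of the endothelial genes were seen, so this share is a description and no test.

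The 3 tumors did not share the other cell type markers. The erythroid list summed to 665 and 752 CPM in KPY-Setd2KO replicates 4 and 8, the highest of the 14 tumors, and to 225 CPM in KPY-Ctrl replicate 6, below the 315 CPM of KPY-Ctrl replicate 2. Over all tumors it ranged from 62.7 to 315 CPM in KPY-Ctrl and from 69.2 to 752 CPM in KPY-Setd2KO, and its leading gene Hba-a2, an alpha globin, reached 265 and 301 CPM in KPY-Setd2KO replicates 4 and 8. Leukocyte genes were high in KPY-Ctrl replicate 6 and KPY-Setd2KO replicate 4 and low in KPY-Setd2KO replicate 8. The fibroblast list was highest in KPY-Ctrl replicate 2 (89.8 CPM), also for its leading gene Col1a2, a collagen (21.2 CPM, against 0.621 to 12.7 CPM elsewhere). The pericyte and smooth muscle list, of cells that coat vessels, summed to between 11.0 and 42.1 CPM in KPY-Ctrl and between 5.35 and 17.4 CPM in KPY-Setd2KO tumors. KPY-Setd2KO replicates 8 and 4 were the highest of their genotype at 17.4 and 14.4 CPM, and KPY-Ctrl replicate 6 had 16.3 CPM. Its leading gene Acta2, smooth muscle actin, had a log2 fold change of -2.0 (SE 0.39), with an adjusted p of 0.116 in edgeR on genotype alone, 0.000333 in DESeq2 and 0.0201 in edgeR with the leukocyte score. So Acta2 was lower in KPY-Setd2KO tumors by the latter 2 fits, neither of which called any of the 10 endothelial genes. The rest of its list did not share this direction. Of the 6 pericyte and smooth muscle genes tested, 3 had a positive fold change, and the median log2 fold change was 0.14. The platelet list ranged from 37.9 to 79.7 CPM in KPY-Ctrl and from 5.42 to 44.8 CPM in KPY-Setd2KO tumors. Its leading gene Pf4, platelet factor 4, had a log2 fold change of -1.64 (SE 0.40), with an adjusted p of 0.129 in edgeR on genotype alone, 0.00796 in DESeq2 and 0.0324 in edgeR with the leukocyte score. Pf4 made up most of the platelet sums, with means of 53.7 CPM in KPY-Ctrl and 17.3 CPM in KPY-Setd2KO tumors. Of the 4 platelet genes tested, 2 had a positive fold change, and the median log2 fold change was 0.19. The macrophage gene Lyz2 ranged from 1690 to 43500 CPM (adjusted p = 0.865 in edgeR). No gene of these lists was at 0 in all tumors. The part of other cell types in the endothelial levels was not tested.

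**Figure D3:**
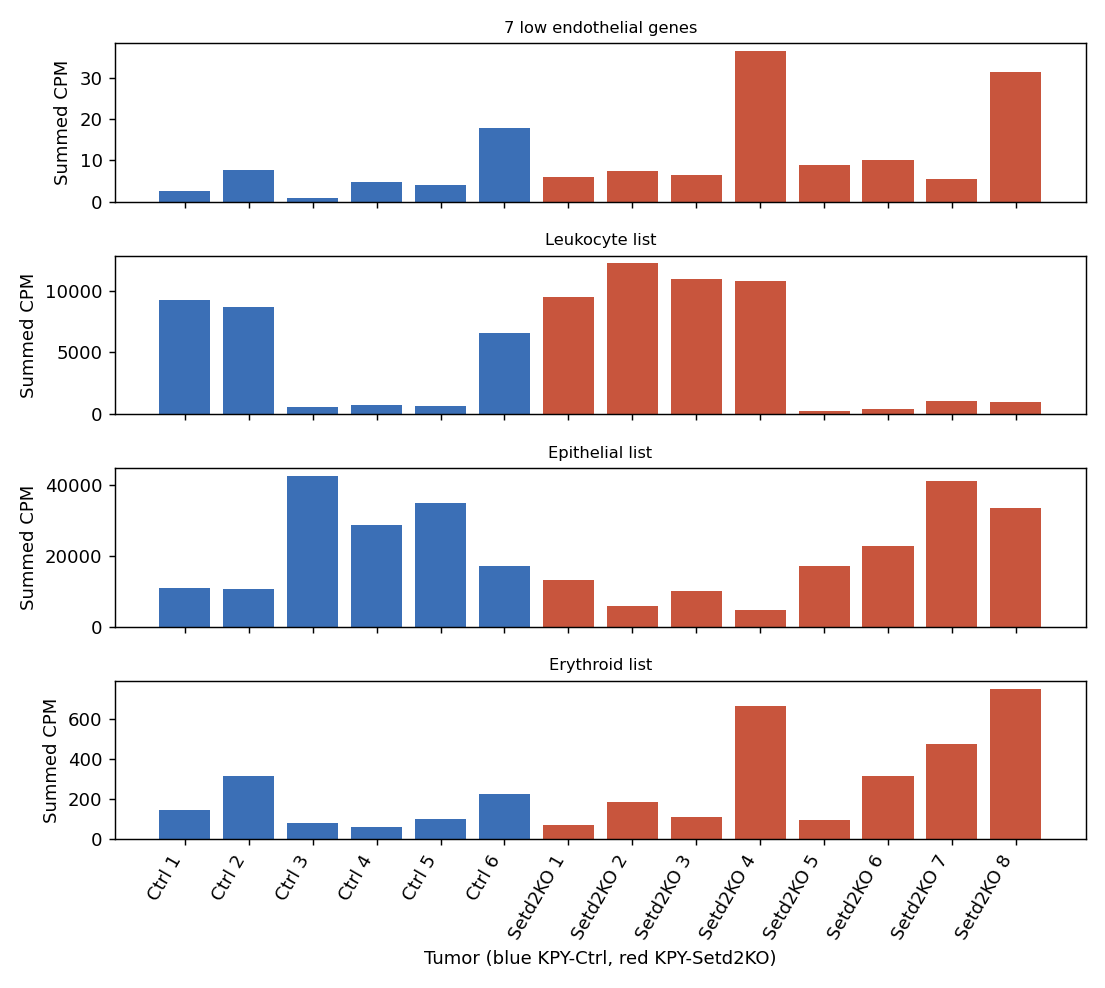
Summed CPM per tumor of the 7 endothelial genes with a mean below 4 CPM (top panel) and of the leukocyte, epithelial and erythroid marker lists, each on its own linear axis from 0. The endothelial sum was highest in KPY-Setd2KO replicates 4 (36.5 CPM) and 8 (31.4 CPM) and KPY-Ctrl replicate 6 (17.7 CPM), and of the other lists the erythroid one also peaked in KPY-Setd2KO replicates 4 and 8.

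The comparison of KPY-Setd2KO with KPY-Ctrl tumors, which asks what changes in these tumors when Setd2 is targeted, called none of the 10 endothelial genes. With both thresholds, an adjusted p below 0.05 and a log2 fold change beyond 1 in either direction, edgeR's quasi-likelihood test called 0 of the 16836 genes tested (0%). At an unadjusted p under 0.05 it had 2311 genes (13.7%), of which 1 was an endothelial gene, Pecam1. Limma voom also called 0 genes and had 2243 of 16836 at an unadjusted p under 0.05, 3 of them among the 10. DESeq2 called 468 genes (2.46% of 18988 with an adjusted p) and 0 of the 10. At an unadjusted p under 0.05 DESeq2 had 3508 of 34773 genes, 3 of them among the 10. The groups did not overlap for 96 genes (0.57%) and overlapped for all 10 endothelial genes. Fold changes were positive for 9 of the 10 and above 1 for 6, with a median of 1.04. Of all genes tested, 52.7% were positive, 7.19% were above 1 and the median was 0.03. Standard errors of the 7 scarce genes were between 0.68 and 0.98, against log2 fold changes from 0.47 (Tek) to 1.48 (Cldn5).

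These differences leaned on few tumors. Without KPY-Ctrl replicate 6 and KPY-Setd2KO replicates 4 and 8, a choice made after their levels were seen, the median fell to 0.57. Most of these tumors were KPY-Setd2KO and they were picked for high levels, so some fall follows from the choice. Tek then had a log2 fold change of -0.05, Tie1 0.32, Emcn 0.56, Kdr 0.57 and Ramp2 0.75. Cdh5 at 1.26, Cldn5 at 1.76 and Pecam1 at 1.01 were close to or above their values in all 14 tumors, and Esam had 0.04 and Egfl7 -0.37. No endothelial gene was called in that fit either, with adjusted p from 0.386 (Pecam1) to 0.987 in edgeR's test. Leaving out single tumors moved Kdr from 0.34 (without KPY-Setd2KO replicate 4) to 1.89 (without KPY-Ctrl replicate 6), Tie1 from 0.52 to 1.67 and Tek from 0.06 to 0.89. The ranges were 0.70 to 1.06 for Pecam1, 0.94 to 1.87 for Cdh5 and 1.05 to 2.98 for Cldn5. They were 0.77 to 1.80 for Ramp2 and 0.71 to 1.46 for Emcn, and those of Esam and Egfl7 crossed 0.

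**Figure D4:**
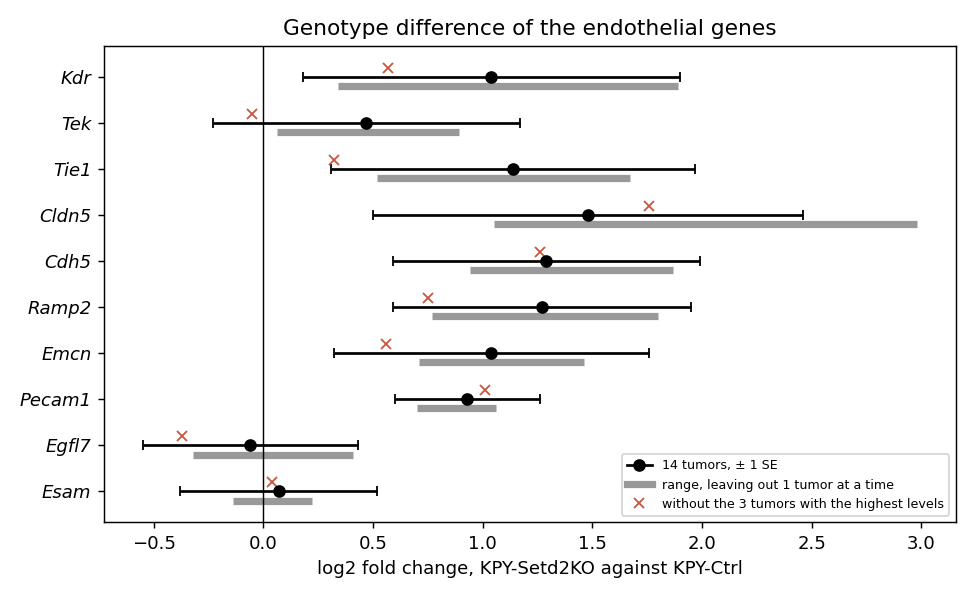
Log2 fold change of each endothelial gene, KPY-Setd2KO against KPY-Ctrl, from edgeR. Black points with bars show all 14 tumors ± 1 SE, grey bars the range over the 14 fits that each left out 1 tumor, and crosses the fit without KPY-Ctrl replicate 6 and KPY-Setd2KO replicates 4 and 8, in which Tek lies at -0.05 and Cldn5 at 1.76.

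The members also differed in how they went with leukocyte RNA. In a model with genotype and the leukocyte score together, 28.5% of all genes tested were lower and 28.5% higher with a higher score at an adjusted p under 0.05 in edgeR's test. Of the endothelial genes, 2 of 10 were lower and 0 higher. Esam fell by 0.31 on the log2 scale for each unit of score (SE 0.06, adjusted p = 0.000952) and Egfl7 fell by 0.28 (SE 0.09, adjusted p = 0.0134), and all 10 genes of the epithelial list were also lower with a higher score. The coefficients of the other 8 were positive, from 0.13 (Pecam1) to 0.37 (Cldn5), and none passed the test. With the score in the model, 376 genes were called between the genotypes (2.23%), again with 0 of the 10, and their adjusted p ran from 0.0995 to 0.843.

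Across the 14 tumors, the scarce genes followed the mean of the 10 more closely than the 3 more abundant ones did. Pearson's r of each gene with the mean standardized log2 CPM of the 10, which includes the gene itself, was 0.88 for Kdr, 0.87 for Cldn5 and Ramp2, 0.83 for Tek and 0.78 for Cdh5, Tie1 and Emcn. It was 0.46 for Pecam1, 0.28 for Egfl7 and 0.09 for Esam. The scarce genes are 7 of the 10 and so make up most of this mean, and part of this contrast is built in. Of the genes outside the 10, those most like the mean were Plvap (r = 0.88), Clec14a (0.87), Foxf1 (0.84), Ntn1 (0.84), Tbx3 (0.83), Scn3b (0.82), Hmgb1-ps3 (0.80), Sparcl1 (0.80), S100a9 (0.77) and Cxcl12 (0.77). Plvap, a protein of the diaphragms of fenestrated and lung capillaries, had 4.86, 4.58 and 2.95 CPM in KPY-Setd2KO replicates 8 and 4 and KPY-Ctrl replicate 6. Foxf1, a transcription factor of lung capillaries, had 2.76 CPM in KPY-Setd2KO replicate 4, 2.29 in replicate 8 and 1.36 in KPY-Ctrl replicate 6, against at most 0.677 CPM elsewhere. These correlations describe 14 libraries of unequal depth in which most of the genes have few counts.

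A wider set of 68 endothelial and vessel genes, listed by role, gave the frame for the 10. Of these, 55 passed the filter, 0 were called by edgeR, 46 had a positive fold change and the median was 0.56. At an unadjusted p under 0.05, 10 were higher and 2 lower, 12 of 55 where 13.7% of all genes tested had such a p. The 3 tumors that led for Kdr and Tek were the highest 3 for 10 of the 55. These were the surface genes Eng, S1pr1, Gpihbp1, Tmem100 and Cyyr1, the transcription factors Erg, Sox18, Gata2 and Foxf1, and Lyve1 of lymphatic vessels.

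Among the other surface and junction genes, 4 of 21 were higher at an unadjusted p under 0.05 and 0 lower, where 13.7% of all genes tested passed in either direction. Ecscr, an endothelial cell surface regulator of chemotaxis, had the smallest p. Its mean was 1.29 ± 0.528 CPM (SD, n = 6) among KPY-Ctrl and 8.31 ± 8.07 CPM (SD, n = 8) among KPY-Setd2KO tumors, with a log2 fold change of 2.68 (SE 0.68, adjusted p = 0.133 in edgeR's test and 0.00193 in DESeq2). Its high tumors were KPY-Setd2KO replicates 6, 7 and 5 at 23.4, 14.3 and 14.1 CPM, and KPY-Setd2KO replicates 4 and 8 had 2.61 and 5.97 CPM, so its order was not that of Kdr or Tek. The BMP receptor Bmpr2, the most abundant of this list, had 99.1 ± 30.1 CPM (SD, n = 6) and 82.8 ± 25.4 CPM (SD, n = 8), a log2 fold change of -0.26 (adjusted p = 0.688 in edgeR's test).

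Of the 11 endothelial transcription factors tested, 1 was higher at an unadjusted p under 0.05 (13.7% of all genes, both directions). Sox7 ranged from 0 to 0.386 CPM in KPY-Ctrl and from 0.0742 to 1.54 CPM in KPY-Setd2KO tumors (log2 fold change 2.89, SE 0.90, adjusted p = 0.188 in edgeR's test and 0.0131 in DESeq2). It had 0 counts in KPY-Ctrl replicates 3 and 5. The flow-responsive factor Klf2 was the most abundant at 6.87 to 99.7 CPM and rose with the leukocyte score by 0.41 per unit (adjusted p = 0.000516 in edgeR).

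Of the 7 VEGF and angiopoietin ligands tested, 0 were higher and 1 was lower at an unadjusted p under 0.05 (13.7% of all genes, both directions). Vegfa, the main ligand of Kdr, ranged from 43.7 to 189 CPM in KPY-Ctrl and from 29.7 to 418 CPM in KPY-Setd2KO tumors (log2 fold change 0.68, SE 0.61, adjusted p = 0.695 in edgeR's test). Its highest tumors were KPY-Setd2KO replicates 6 and 5 at 418 and 365 CPM, in which Kdr was at 0.871 and 0.691 CPM. Vegfa fell by 0.45 per unit of leukocyte score (adjusted p = 1.53e-05 in edgeR). Angpt2, a ligand of Tek, ranged from 0.0682 to 7.66 CPM in KPY-Ctrl and from 0.161 to 0.934 CPM in KPY-Setd2KO tumors, with a log2 fold change of -1.74 (SE 0.72, adjusted p = 0.300 in edgeR's test). Without KPY-Ctrl replicate 3 it was -0.51. This was its highest tumor, with the smallest sum of the scarce endothelial genes, and its lowest was KPY-Ctrl replicate 6. KPY-Setd2KO replicates 4 and 8, with the largest sums of those genes, had 0.573 and 0.459 CPM of Angpt2, well inside the range of their group.

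Of the 4 other VEGF receptors and co-receptors, 2 (Nrp1 and Flt4) were higher at an unadjusted p under 0.05 (13.7% of all genes, both directions). A list this short allows no reading of that count. KPY-Ctrl tumors had 45.5 ± 14.2 CPM of Nrp1 (SD, n = 6) and KPY-Setd2KO tumors 74.5 ± 23.8 CPM (SD, n = 8), a log2 fold change of 0.71 (SE 0.24, adjusted p = 0.222 in edgeR's test). Flt1 (VEGFR1) ranged from 29.4 to 161 CPM in KPY-Ctrl and from 49.2 to 244 CPM in KPY-Setd2KO tumors (adjusted p = 0.571 in edgeR's test), and rose with the leukocyte score by 0.23 per unit (adjusted p = 0.00685 in edgeR). The coefficient of Kdr for the score was 0.29 (SE 0.19) and did not pass the test (adjusted p = 0.195 in edgeR).

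Of all genes tested, 13.7% had an unadjusted p under 0.05, counting both directions. At that threshold, of the markers of vessel types, 1 of 5 capillary genes and 2 of 4 large vessel genes were higher. Of the 3 lymphatic genes, 1 was lower. The lung capillary gene Car4 ranged from 20.7 to 1480 CPM and the platelet and large vessel gene Vwf from 5.60 to 112 CPM, and both rose with the leukocyte score, by 1.03 (adjusted p = 3.17e-10) and 0.72 (adjusted p = 2.38e-08) per unit in edgeR's test. In the genotype comparison their adjusted p was 0.934 and 0.924 in edgeR, with log2 fold changes of 0.33 (SE 1.05) and -0.28 (SE 0.79). Ednrb, the endothelin receptor of a lung capillary subtype, stood at 0.233 ± 0.102 CPM (SD, n = 6) among KPY-Ctrl and 1.19 ± 1.14 CPM (SD, n = 8) among KPY-Setd2KO tumors, with a log2 fold change of 2.34 (SE 0.62, adjusted p = 0.137 in edgeR's test and 0.00581 in DESeq2). KPY-Setd2KO replicates 4 and 8 were its highest tumors at 3.47 and 2.41 CPM, while KPY-Ctrl replicate 6 was at 0.205 CPM. Selp (P-selectin, of venules and platelets), 1 of the 2 large vessel genes, was at 33.0 and 32.3 CPM in KPY-Setd2KO replicates 5 and 6. It was at no more than 2.33 CPM in any other tumor, with medians of 0.465 CPM in KPY-Ctrl and 0.426 CPM in KPY-Setd2KO tumors. Its log2 fold change was 4.27 in edgeR's test (adjusted p = 0.237) and 0.38 in DESeq2 (adjusted p = 0.864). Pdpn, a lymphatic gene also made by alveolar epithelium, had 73.3 ± 29.2 CPM (SD, n = 6) and 47.1 ± 16.7 CPM (SD, n = 8), a log2 fold change of -0.64 (SE 0.28, adjusted p = 0.335 in edgeR's test).

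The alternatives that called genes also called some of the wider set, though none of the 10. Of the 68 genes of this set, DESeq2 called Jam2, Ecscr, Ednrb, Vegfc, Cd34 and Sox7, all higher in KPY-Setd2KO tumors. It called 2.46% of all genes with an adjusted p. Of the 55 that passed the filter, the model with the leukocyte score called Jam2, Ecscr and Ednrb, where it called 2.23% of all genes tested. These counts were not tested against those shares. Jam2, a junction adhesion molecule named here because it was called, ranged from 1.36 to 6.62 CPM in KPY-Ctrl and from 4.41 to 128 CPM in KPY-Setd2KO tumors. Its log2 fold change was 3.61 (SE 0.93, adjusted p = 0.134 in edgeR's test on genotype alone, 0.0096 with the leukocyte score), and its level fell by 0.60 per unit of that score (adjusted p = 0.000133). Vegfc did not pass edgeR's expression filter.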

How the data were processed

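RNA was measured by single-end sequencing in tumors of both genotypes, 6 KPY-Ctrl and 8 KPY-Setd2KO. Expected counts were deposited by the authors per Ensembl gene. They were estimated with Salmon 0.8.2 against GRCm38.p5 per the labels and given as whole numbers, with the largest values written to 3 digits. Salmon divides reads between transcripts that share sequence, so overlapping genes depend on that split, and whether strand was used is not given in the sources used here. The labels and the paper's methods name different RNA and library kits. Each of the 14 columns carries the name of its tumor, and genes were named from the GENCODE annotation of GRCm38.

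The genotypes were compared by edgeR 4.0.16 under R 4.3.3 (TMM scaling, filterByExpr, robust quasi-likelihood test, Benjamini-Hochberg adjustment over all genes tested), with genotype as the only term. The groups were those of the genotype label. A further allele that all mice of both groups carried is not reported here. A call needed an adjusted p below 0.05 together with a log2 fold change beyond 1 in either direction. The paper used DESeq2, here an alternative (1.42.0) run without the expression filter. The others were limma 3.58.1 (voom), other size factors and filters, leaving out each tumor, the replicate number as a block and the leukocyte score as a covariate. Log2 CPM used a prior count of 2. The procedure was tested on simulated counts, where fitted fold changes had to follow the simulated ones and false calls had to be few. The share of changed genes recovered was not a criterion, so passing gives no measure of missed changes. The genes, the marker lists and the tests were chosen with earlier results of these data known. Besides the 10 genes and Setd2, genes were named by rule, as those with the smallest p and the highest level of each wider list, the leading gene of each marker list, the 10 most like the mean of the endothelial genes and any wider gene called. The replicate numbers do not pair the tumors, and p-values measure the spread between tumors, some of which share a mouse. Where the smallest counts are compared, the depth of 20072236 to 51828846 counts per tumor makes 3 counts, the floor used for a count of 0, worth 0.0469 to 0.156 CPM.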

Additional observations from a re-analysis of the deposited data

Results flagged for a closer look

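Each group of values of the 10 endothelial genes, Setd2 and the named vessel genes was examined for a single tumor far from the rest of its genotype (Dixon's criterion on log2 CPM with a prior count of 2). Of 48 groups of values, 2 were marked, and chance marks about 1 in 20. Angpt2, a ligand of Tek, had a log2 CPM of -2.21 in KPY-Setd2KO replicate 2 (0.161 CPM), while the other 7 KPY-Setd2KO tumors lay between -0.96 and -0.02. Selp had a log2 CPM of -2.34 in KPY-Ctrl replicate 1 (0.143 CPM), while the other 5 KPY-Ctrl tumors lay between -1.18 and -0.49. None of the 10 endothelial genes was marked, including in KPY-Setd2KO replicates 4 and 8, where 2 high tumors in 1 group hide each other from this criterion.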

How the results depend on the processing

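The 10 endothelial genes were called 0 times in all alternatives. The number of genes called moved from 0 to 468 with DESeq2 (2.46%), to 376 with the leukocyte score as a covariate (2.23%) and to 1 without KPY-Ctrl replicate 6 (0 to 1 over the fits that left out 1 tumor). That of the wider set of 68 genes, of which 55 passed the filter, moved from 0 to 6 and 3 with the first 2. Requiring at least 10 counts in every tumor left 3 of the 10 genes, and their median log2 fold change was 0.06, since this filter removes the scarce genes. Otherwise the median lay between 0.57 and 1.12, with 0.79 to 1.48 when 1 tumor was left out. With the leukocyte score, Setd2 passed the p threshold but, at -0.83, not the fold threshold, so it was not called (adjusted p = 0.0266 in edgeR, 0.0266 to 0.435 over the alternatives outside leaving out 1 tumor).

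Esam changed sign with library size only (-0.08, where the median of all genes moved by -0.14), without the expression filter (just below 0), with voom (-0.12) and without single tumors (-0.14 to 0.22 over all such fits). Egfl7 changed sign with the leukocyte score (0.15) and without single tumors (-0.32 to 0.41). Tek was at -0.05 without KPY-Ctrl replicate 6 and KPY-Setd2KO replicates 4 and 8, an alternative chosen after seeing the data. With the replicate block, Tek was at -0.03, Esam at -0.43 and the median of the 10 at 0.70, with 0 genes called. The replicate numbers do not pair the tumors, as the correlations of same-numbered tumors' deviations ran from -0.664 to 0.657. The causes of these changes were not tested. Counts of 1 to 39 per tumor for Emcn, and down to 1 for Tie1 and 3 for Kdr, limit the precision of the scarce genes.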
